A study of Mus musculus with 16 samples.

Results

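The genes described here encode the enzymes that make and use glutathione and that break down superoxide and peroxides. They were chosen by name from an RNA-seq table of mouse adipose tissue: the glutathione S-transferases (GSTs) of the alpha, kappa, mu, omega, pi, theta and zeta classes, the microsomal GSTs, the glutathione peroxidases (Gpx), peroxiredoxins (Prdx) and superoxide dismutases (Sod), and Cat, Gclc, Gclm, Gss and Gsr. The names matched 48 of 38396 rows, of which 47 are protein-coding genes and 1, Prdx2-rs3, is a processed pseudogene. The samples were brown adipose tissue (BAT), epididymal white adipose tissue (eWAT) and inguinal white adipose tissue (iWAT) of 12-week-old mice. HuR-FKO mice carried AdipoQ-Cre and HuRf/f, a design that removes the RNA-binding protein HuR (gene Elavl1) from mature adipocytes, in which the adiponectin promoter is active. Other cells of the fat pad keep the gene. Ctrl mice were HuRf/f littermates without Cre, so both genotypes carried the floxed alleles, on a stock crossed to C57BL/6 for 2 generations. There were 2 HuR-FKO and 2 Ctrl libraries of BAT, and 3 of each genotype of eWAT and of iWAT, 16 in all. The RNA of each library was pooled from 3 mice, so the spread between libraries is a spread between pools.

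Glutathione is a tripeptide made by glutamate-cysteine ligase (Gclc and Gclm) and glutathione synthetase (Gss), and it is the main soluble thiol of the cell. GSTs attach it to electrophiles such as products of lipid peroxidation, Gpx enzymes oxidise it to reduce peroxides, and glutathione reductase (Gsr) returns the oxidised form to the reduced one with NADPH. Superoxide dismutases turn superoxide into hydrogen peroxide, which catalase (Cat), the peroxiredoxins and the Gpx enzymes remove in different compartments of the cell. Brown adipocytes are rich in mitochondria, which are a main source of superoxide, whereas white adipocytes hold large stores of lipid that can be peroxidised.

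Values are in FPKM, the fragments of a gene scaled by the length of its transcript and by the mapped fragments of the library. The depth, estimated from the steps between low values, was 16.3 to 17.8 M fragments in the BAT libraries and 9.51 to 15 M in the white fat libraries. The labels were checked against Elavl1, whose mean was not lower in HuR-FKO than in Ctrl in any depot. It had 8.98 and 8.17 FPKM in HuR-FKO BAT against 8.34 and 7.36 in Ctrl BAT, 13.9, 15.4 and 13.3 in HuR-FKO eWAT against 13.6, 13.8 and 12.2 in Ctrl eWAT, and 16.5, 15.3 and 13.9 in HuR-FKO iWAT against 13.2, 15.8 and 12.4 in Ctrl iWAT. HuR-FKO below means the libraries labelled so. The summed level of 7 brown adipocyte markers was 4160 to 5601 FPKM in BAT, 12.9 to 35.9 in eWAT and 213 to 972 in iWAT. The BAT libraries stood apart in composition, with 37.7% to 44.5% of the protein-coding FPKM sum in mitochondrially encoded genes, against 12.1% to 16.8% in eWAT and 19.7% to 27.3% in iWAT. The FPKM of all rows of the table summed to 719411 to 796184 in BAT and 3460326 to 12928419 in white fat, and those of protein-coding genes to 631354 to 676812 and 578835 to 651068. In fold changes of BAT over white fat the median of all genes was well below 0, and such comparisons are given below as deposited and again after scaling each library by the median ratio of its genes. Since depot and library composition changed together, they cannot be told apart in these comparisons. The orders of BAT and white fat in the levels of single genes below are those of the deposited values alone. Some turned after scaling, among them Gclc, Gpx1, Mgst1 and Prdx6 against iWAT in Ctrl, as given in the last section.

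Of the 48 genes, 40 were above 1 FPKM in at least 1 library, and 38 of these in all 16. Gstm3 was at 0.227 to 0.669 FPKM in BAT, and Gstm6 was under 1 FPKM in Ctrl BAT replicate 2 alone, at 0.961. The 8 others never passed 1 FPKM. They were the alpha class genes Gsta1 (highest value 0.393) and Gsta2 (0.526), the theta class gene Gstt4 (0.774), the peroxidases Gpx2 (0.0966), Gpx5 (0.0724) and Gpx6 (0 in all 16 libraries), the peroxiredoxin gene Prdx6b (0.126) and the pseudogene Prdx2-rs3 (0.0866). Summed over the 48 genes, the level was 5105 to 5809 FPKM in BAT, 8041 to 9238 in eWAT and 5349 to 6453 in iWAT. The glutathione peroxidases made up the largest share by summed level, with 1932 to 2430 FPKM in BAT, 2166 to 2999.6 in eWAT and 1461 to 1766 in iWAT.

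**Figure D1:**
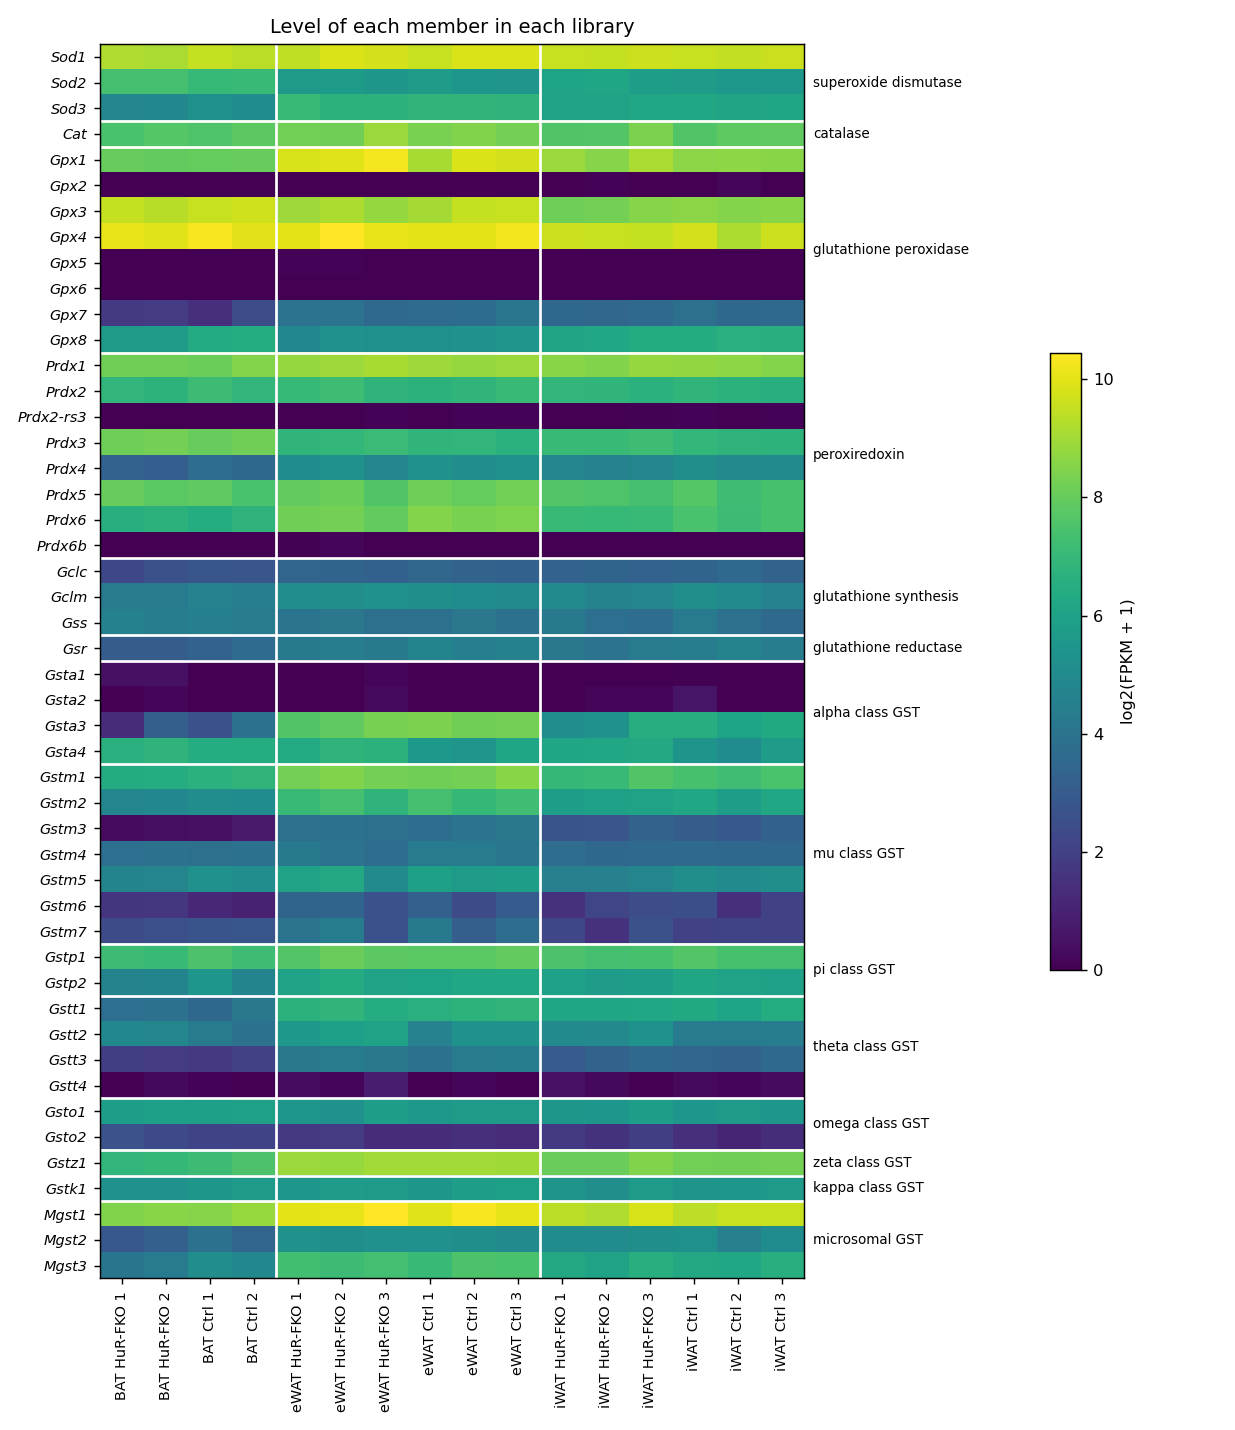
Levels of the 48 genes, log2(FPKM + 1) by colour, with a row for each gene (grouped by enzyme class) and a column for each of the 16 libraries (BAT, eWAT and iWAT from left to right, HuR-FKO left of Ctrl in each depot). The 8 genes that never passed 1 FPKM are the darkest rows, and the summed level of all rows is highest in the eWAT columns.

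Many of these genes lie close to one another in the mm10 genome (GRCm38, GENCODE vM21 annotation). The 7 mu class genes are within 149 kb of chromosome 3 (107895821 to 108044894). Gstt1, Gstt2, Gstt3 and Gstt4 are within 63 kb of chromosome 10 (75774115 to 75837424), and Gclc, Gsta1, Gsta2 and Gsta4 within 601 kb of chromosome 9 (77754535 to 78355788). Gstp1 and Gstp2 are within 11 kb of chromosome 19, and Gsto1 and Gsto2 within 31 kb of the same chromosome. In 16 of the 48 genes, over 10% of the distinct 31-base stretches of the gene's transcripts were shared with another gene's transcripts. The shared part was 60.3% in Gstp2, 38.5% in Gstp1, 38.9% in Gpx4, 37.7% in Gstm3, 28.8% in Gstm1 and 26.7% in Sod2, so the values of these genes may include reads of their copies. In Gsta4, Gsr, Gpx8, Prdx3, Prdx4, Cat, Gpx1, Gpx7 and Mgst1 it was 0. Exons of Gstt3 overlap the protein-coding gene Gm20441 on the same strand, and exons of Gss, Gstz1, Prdx2 and Prdx5 overlap a protein-coding gene on the other strand. Whether the counting used strand is not given in the sources used here.

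A good part of this gene family is known for the antioxidant response element, the motif bound by the transcription factor NRF2, which is active when its inhibitor KEAP1 is oxidised. In RefSeq promoter windows (GRCm38.p6, 250 bases before to 50 after the start of the gene), which matched 40 of the 48 genes, the letters TGACNNNGC on either strand were present in 7 (17.5%), against 14.0% of the windows of all 27025 genes. The 7 were Gclm, Gsta3, Gstm5, Gstm7, Mgst1, Prdx1 and Sod1. The start is that of the RefSeq table, which in Gstm5, Gstm7, Mgst1, Prdx1 and Sod1 lies inside the gene as GENCODE bounds it. A match is a description of letters and no binding site. The 250 bases before the start are shown for 3 of them, each the carrier of another role (synthesis, conjugation and peroxide removal). Capitals mark the motif, which lies 134 bases before the start in Gclm, 121 in Gsta3 and 133 in Prdx1. In Gclm and Prdx1 it is on the other strand, and in Prdx1 it holds the letters TGAGTCA of an AP-1 site.
Gclm, chr3:122245307-122245556, plus strand: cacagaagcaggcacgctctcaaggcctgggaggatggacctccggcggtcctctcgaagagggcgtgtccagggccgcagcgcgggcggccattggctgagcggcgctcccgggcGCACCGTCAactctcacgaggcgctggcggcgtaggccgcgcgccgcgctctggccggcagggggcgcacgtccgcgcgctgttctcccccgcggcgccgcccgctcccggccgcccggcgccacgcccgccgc
Gsta3, chr1:21240335-21240584, plus strand: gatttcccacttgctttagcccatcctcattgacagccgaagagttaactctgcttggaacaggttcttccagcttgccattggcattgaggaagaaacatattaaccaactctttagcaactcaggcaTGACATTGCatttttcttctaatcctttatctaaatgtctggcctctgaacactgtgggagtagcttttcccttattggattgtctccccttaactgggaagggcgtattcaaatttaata
Prdx1, chr4:116685349-116685598, plus strand: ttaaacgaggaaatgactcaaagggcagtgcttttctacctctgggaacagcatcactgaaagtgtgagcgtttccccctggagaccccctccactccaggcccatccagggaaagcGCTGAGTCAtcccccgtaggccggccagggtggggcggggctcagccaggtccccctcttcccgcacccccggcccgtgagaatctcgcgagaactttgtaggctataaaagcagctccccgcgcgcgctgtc

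The genes of glutathione synthesis and recycling were expressed at low levels in all depots. Gclc, the catalytic subunit of glutamate-cysteine ligase, had 3.81 and 4.95 FPKM in HuR-FKO BAT against 5.97 and 5.69 in Ctrl BAT, 9.49, 9.26 and 8.41 in HuR-FKO eWAT against 9.94, 9.06 and 8.55 in Ctrl eWAT, and 8.89, 9.34 and 8.79 in HuR-FKO iWAT against 9.2, 11.1 and 9.03 in Ctrl iWAT. Gclm, its modifier subunit, had 18.3 and 18.6 FPKM in HuR-FKO BAT against 24 and 21.3 in Ctrl BAT, 33.6, 35.4 and 38.9 in HuR-FKO eWAT against 35.7, 33.1 and 30.1 in Ctrl eWAT, and 29.9, 24.8 and 26.4 in HuR-FKO iWAT against 35.1, 30.2 and 23.8 in Ctrl iWAT. Gss, which adds glycine in the second step, had 23.3 and 19.9 FPKM in HuR-FKO BAT against 21.8 and 19.1 in Ctrl BAT, 15.2, 16.7 and 13.7 in HuR-FKO eWAT against 13.4, 16.6 and 14.2 in Ctrl eWAT, and 18, 13.1 and 12.4 in HuR-FKO iWAT against 18.4, 13.7 and 11.3 in Ctrl iWAT. The levels of these genes overlapped between eWAT and iWAT, and in BAT Gclc was below and Gss above every white fat library. Gsr, the reductase, had 7.44 and 7.53 FPKM in HuR-FKO BAT against 8.78 and 11.5 in Ctrl BAT, 17.8, 20 and 17.6 in HuR-FKO eWAT against 25.5, 22.1 and 23.1 in Ctrl eWAT, and 17.3, 14.8 and 18.4 in HuR-FKO iWAT against 19.7, 24.9 and 20.2 in Ctrl iWAT. It was lower in BAT than in any white fat library, and in each depot every HuR-FKO library lay below every Ctrl library.

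Gpx1, Gpx3 and Gpx4, which use selenium, were abundant in all depots. Gpx4, which reduces phospholipid hydroperoxides in membranes and so protects from ferroptosis, had 1111 and 983 FPKM in HuR-FKO BAT against 1324 and 1012 in Ctrl BAT, 1034, 1385 and 1088 in HuR-FKO eWAT against 1050.3, 1050.0 and 1242 in Ctrl eWAT, and 773, 766 and 744 in HuR-FKO iWAT against 843, 582 and 802 in Ctrl iWAT. Gpx1, the peroxidase of cytosol and mitochondria, had 256 and 245 FPKM in HuR-FKO BAT against 249 and 259.8 in Ctrl BAT, 899.8, 979 and 1262 in HuR-FKO eWAT against 544, 955 and 877 in Ctrl eWAT, and 472, 375 and 552 in HuR-FKO iWAT against 398, 406 and 381 in Ctrl iWAT. Gpx3, a secreted plasma enzyme, had 739.6 and 648 FPKM in HuR-FKO BAT against 772 and 829.7 in Ctrl BAT, 481, 580.0 and 439 in HuR-FKO eWAT against 523, 737 and 759 in Ctrl eWAT, and 284, 308 and 374 in HuR-FKO iWAT against 402, 364 and 389.8 in Ctrl iWAT. Gpx3 and Gpx4 in BAT and in eWAT lay above every iWAT library, whereas Gpx1 in BAT lay below both white depots. Gpx7 and Gpx8 carry cysteine in place of selenocysteine and sit in the endoplasmic reticulum. Gpx7 had 2.44 and 2.62 FPKM in HuR-FKO BAT against 1.64 and 4.51 in Ctrl BAT, 14.9, 14.7 and 10.9 in HuR-FKO eWAT against 11.6, 12.1 and 16 in Ctrl eWAT, and 10.6, 10.1 and 10.8 in HuR-FKO iWAT against 13.4, 10.1 and 11.3 in Ctrl iWAT. Gpx8 had 48.9 and 53.6 FPKM in HuR-FKO BAT against 83.7 and 87.8 in Ctrl BAT, 28.6, 40.1 and 36.8 in HuR-FKO eWAT against 36.6, 40.1 and 42.2 in Ctrl eWAT, and 67.5, 75.1 and 85.6 in HuR-FKO iWAT against 86.1, 99.5 and 93.8 in Ctrl iWAT. It was the peroxidase with the opposite order in white fat, since all eWAT libraries were below all iWAT libraries.

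Among the peroxiredoxins, thiol peroxidases fed mostly by thioredoxin, the order of depots followed no common pattern. Prdx3, the mitochondrial enzyme, had 284 and 308 FPKM in HuR-FKO BAT against 262 and 291 in Ctrl BAT, 113, 121 and 139 in HuR-FKO eWAT against 113, 117 and 101 in Ctrl eWAT, and 137, 134 and 147 in HuR-FKO iWAT against 121, 109.6 and 107 in Ctrl iWAT, so that every BAT library was above every white fat library. Prdx4, the enzyme of the endoplasmic reticulum, had 8.81 and 7.68 FPKM in HuR-FKO BAT against 12.2 and 10.2 in Ctrl BAT, 32.3, 37.3 and 26.5 in HuR-FKO eWAT against 39.1, 34.2 and 40.7 in Ctrl eWAT, and 27.7, 24.1 and 26.3 in HuR-FKO iWAT against 34.8, 29.2 and 30.3 in Ctrl iWAT, and every BAT library was below. Prdx6, which uses glutathione and also has phospholipase activity, had 95.4 and 104 FPKM in HuR-FKO BAT against 86.8 and 109 in Ctrl BAT, 293, 306 and 243 in HuR-FKO eWAT against 367, 328 and 345 in Ctrl eWAT, and 129, 128 and 129 in HuR-FKO iWAT against 175, 141 and 167 in Ctrl iWAT. All eWAT libraries of Prdx6 were above all iWAT libraries, and BAT was below both. The cytosolic enzymes Prdx1 and Prdx2 and the broadly located Prdx5 differed less. Prdx1 had 289.9 and 290.5 FPKM in HuR-FKO BAT against 273 and 361 in Ctrl BAT, 449.9, 485 and 545 in HuR-FKO eWAT against 483, 446 and 476 in Ctrl eWAT, and 391, 359 and 445 in HuR-FKO iWAT against 438, 406 and 369 in Ctrl iWAT. Prdx2 had 118 and 106 FPKM in HuR-FKO BAT against 141 and 116 in Ctrl BAT, 126, 145 and 109 in HuR-FKO eWAT against 106, 115 and 132 in Ctrl eWAT, and 115, 114 and 102 in HuR-FKO iWAT against 112, 103 and 96.1 in Ctrl iWAT. Prdx5 had 259 and 219.7 FPKM in HuR-FKO BAT against 236 and 175 in Ctrl BAT, 247, 275 and 194 in HuR-FKO eWAT against 280.0, 254 and 300.4 in Ctrl eWAT, and 199, 188 and 164 in HuR-FKO iWAT against 204, 147 and 171 in Ctrl iWAT. Of these, Prdx2 and Prdx5 overlapped between all pairs of depots, and Prdx1 was higher in each eWAT library than in any BAT or iWAT library.

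Each superoxide dismutase had its own order. Sod2, the manganese enzyme of mitochondria, had 165 and 165 FPKM in HuR-FKO BAT against 126 and 133 in Ctrl BAT, 49.8, 50.9 and 45.7 in HuR-FKO eWAT against 52.9, 43.9 and 42.7 in Ctrl eWAT, and 66.8, 70.5 and 54.7 in HuR-FKO iWAT against 51.6, 46.1 and 46.7 in Ctrl iWAT. Sod3, the secreted enzyme, had 27.5 and 28.4 FPKM in HuR-FKO BAT against 36.5 and 32.1 in Ctrl BAT, 133, 105 and 104 in HuR-FKO eWAT against 115, 113 and 109.9 in Ctrl eWAT, and 63.8, 64.2 and 76.4 in HuR-FKO iWAT against 73.2, 68.6 and 69.2 in Ctrl iWAT. Sod2 was highest in BAT without overlap, and Sod3 was highest in eWAT and lowest in BAT without overlap. Sod1, the copper and zinc enzyme of the cytosol, had 586 and 563 FPKM in HuR-FKO BAT against 738 and 668 in Ctrl BAT, 702, 967 and 875 in HuR-FKO eWAT against 769.7, 917 and 922 in Ctrl eWAT, and 769.9, 748 and 805 in HuR-FKO iWAT against 760.4, 722 and 791 in Ctrl iWAT, and its depots overlapped. Cat, the peroxisomal catalase, had 172 and 208 FPKM in HuR-FKO BAT against 191 and 226 in Ctrl BAT, 299, 290.0 and 467 in HuR-FKO eWAT against 324, 355 and 305 in Ctrl eWAT, and 198, 201 and 331 in HuR-FKO iWAT against 194, 229 and 239.9 in Ctrl iWAT, with BAT below every eWAT library.

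The conjugating enzymes had the widest range. Gsta3, an alpha class GST known in mice for detoxifying the epoxide of aflatoxin, had 1.5 and 7.91 FPKM in HuR-FKO BAT against 5.23 and 13.8 in Ctrl BAT, 194, 237 and 313 in HuR-FKO eWAT against 333, 289 and 311 in Ctrl eWAT, and 34.4, 38.9 and 89.9 in HuR-FKO iWAT against 89.9, 65.9 and 80.6 in Ctrl iWAT. The depots did not overlap, and the BAT replicates of Gsta3 differed several-fold within each genotype. In BAT the summed level of 5 fibroblast and progenitor markers was also lower in replicate 1 than in replicate 2, at 68.0 and 134 FPKM in HuR-FKO BAT against 67.4 and 216 in Ctrl BAT, and its part in the Gsta3 values was not tested. Gsta4, which conjugates hydroxynonenal, a product of lipid peroxidation, had 97.8 and 109.6 FPKM in HuR-FKO BAT against 87.9 and 87.8 in Ctrl BAT, 83, 109.7 and 104 in HuR-FKO eWAT against 47, 42.5 and 69.7 in Ctrl eWAT, and 70.2, 75.9 and 78.2 in HuR-FKO iWAT against 41.9, 31.9 and 53 in Ctrl iWAT. In every depot the HuR-FKO libraries of Gsta4 were above the Ctrl libraries.

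Of the mu class GSTs, which conjugate epoxides and other electrophiles, Gstm1 was the most abundant, with 84.6 and 87.3 FPKM in HuR-FKO BAT against 102 and 114 in Ctrl BAT, 306, 351 and 304 in HuR-FKO eWAT against 291, 309.6 and 384 in Ctrl eWAT, and 122, 136 and 195 in HuR-FKO iWAT against 167, 150.1 and 179.9 in Ctrl iWAT. Gstm2 had 26.6 and 28.1 FPKM in HuR-FKO BAT against 34 and 33 in Ctrl BAT, 130.2, 164 and 110.5 in HuR-FKO eWAT against 164, 122 and 152 in Ctrl eWAT, and 55.5, 61.8 and 64.8 in HuR-FKO iWAT against 73.6, 56.6 and 73.2 in Ctrl iWAT. Gstm3 had 0.227 and 0.324 FPKM in HuR-FKO BAT against 0.377 and 0.669 in Ctrl BAT, 13.7, 14.1 and 13.4 in HuR-FKO eWAT against 12.6, 14.6 and 17.3 in Ctrl eWAT, and 5.61, 5.75 and 9.11 in HuR-FKO iWAT against 7.43, 6.44 and 8.53 in Ctrl iWAT. For these 3 genes the order was the same in every library, with eWAT above iWAT and iWAT above BAT. Gstm4 had 13.3 and 14.4 FPKM in HuR-FKO BAT against 13.5 and 13.9 in Ctrl BAT, 17.9, 15 and 12.3 in HuR-FKO eWAT against 18.1, 18.2 and 16.4 in Ctrl eWAT, and 12.4, 10.4 and 10.9 in HuR-FKO iWAT against 11.2, 10.3 and 10.4 in Ctrl iWAT. Gstm5 had 25.4 and 25.8 FPKM in HuR-FKO BAT against 37.1 and 34.4 in Ctrl BAT, 64.2, 79.2 and 30.6 in HuR-FKO eWAT against 59.7, 51 and 57.2 in Ctrl eWAT, and 22.2, 22.6 and 25.8 in HuR-FKO iWAT against 35, 30.3 and 34.5 in Ctrl iWAT. Gstm6 had 2.05 and 2.17 FPKM in HuR-FKO BAT against 1.21 and 0.961 in Ctrl BAT, 9.31, 9.32 and 5.17 in HuR-FKO eWAT against 8.12, 4.32 and 7.18 in Ctrl eWAT, and 1.8, 3.59 and 4.54 in HuR-FKO iWAT against 4.66, 1.76 and 3.11 in Ctrl iWAT. The depots overlapped in Gstm4, Gstm5 and Gstm6, apart from BAT below eWAT in Gstm6 and BAT above iWAT in Gstm4. Gstm7 had 4.18 and 4.83 FPKM in HuR-FKO BAT against 5.5 and 5.99 in Ctrl BAT, 15.1, 19.9 and 5.14 in HuR-FKO eWAT against 17.9, 7.89 and 12.3 in Ctrl eWAT, and 3.73, 1.77 and 5.04 in HuR-FKO iWAT against 3.09, 3.37 and 3.2 in Ctrl iWAT. Its eWAT libraries varied more than 3-fold (5.14 to 19.9 FPKM) and were in the same order as the summed level of 5 epithelial markers within HuR-FKO eWAT, at 22.1, 35.5 and 9.21 FPKM, and within Ctrl eWAT, at 23.5, 14.0 and 18.1. Of these markers Epcam, Krt8 and Krt18 each had this order, Krt14 had another in both genotypes, and Krt5 was at 0 in every library. The eWAT libraries of Gstm2, Gstm5 and Gstm6 were in this order as well. The part of epithelial cells in the values of these mu class genes was not tested.

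The theta class GSTs act mainly on small halogenated compounds. Gstt1 had 12.9 and 14.4 FPKM in HuR-FKO BAT against 10.2 and 17.4 in Ctrl BAT, 103, 113 and 88.3 in HuR-FKO eWAT against 98.7, 108 and 115 in Ctrl eWAT, and 70.3, 70.2 and 73.8 in HuR-FKO iWAT against 80.1, 66.8 and 86.7 in Ctrl iWAT. Gstt2 had 28.6 and 26.6 FPKM in HuR-FKO BAT against 19.7 and 14.1 in Ctrl BAT, 46.4, 58.5 and 64.2 in HuR-FKO eWAT against 24, 39.9 and 39.5 in Ctrl eWAT, and 30.9, 29.4 and 40.4 in HuR-FKO iWAT against 18.5, 19.5 and 20.8 in Ctrl iWAT. Gstt3 had 2.88 and 2.53 FPKM in HuR-FKO BAT against 2.29 and 3.13 in Ctrl BAT, 17.2, 19.4 and 17.3 in HuR-FKO eWAT against 14.5, 18.1 and 20.6 in Ctrl eWAT, and 6.98, 9.04 and 11.2 in HuR-FKO iWAT against 9.48, 8.99 and 10.8 in Ctrl iWAT. Gstt1 and Gstt3 were in the order eWAT above iWAT above BAT without overlap, whereas Gstt2 differed without overlap between the genotypes in every depot. The pi class genes share much of their sequence. Gstp1 had 143 and 137 FPKM in HuR-FKO BAT against 185 and 148 in Ctrl BAT, 203, 265 and 222 in HuR-FKO eWAT against 219, 221 and 243 in Ctrl eWAT, and 182, 165 and 171 in HuR-FKO iWAT against 202, 169 and 165 in Ctrl iWAT. Gstp2 had 24.8 and 25.3 FPKM in HuR-FKO BAT against 43.7 and 25.6 in Ctrl BAT, 63.6, 84.7 and 64.9 in HuR-FKO eWAT against 66.5, 74.6 and 76.1 in Ctrl eWAT, and 61.5, 53.7 and 54.9 in HuR-FKO iWAT against 70, 63.3 and 62.9 in Ctrl iWAT. In BAT both were below every eWAT library, and HuR-FKO BAT was below Ctrl BAT.

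Membrane-bound GSTs of the microsomal group also reduce lipid peroxides, and Mgst2 can make leukotriene C. Mgst1, the most abundant GST of the table, had 350.1 and 381 FPKM in HuR-FKO BAT against 370.1 and 460.5 in Ctrl BAT, 1055, 1096 and 1401 in HuR-FKO eWAT against 988, 1307 and 1067 in Ctrl eWAT, and 664, 596 and 905 in HuR-FKO iWAT against 689.7, 758 and 763 in Ctrl iWAT. Mgst2 had 6.23 and 8.18 FPKM in HuR-FKO BAT against 14.2 and 9.61 in Ctrl BAT, 39.7, 36 and 38.3 in HuR-FKO eWAT against 37.8, 35.7 and 30.5 in Ctrl eWAT, and 32.2, 32.3 and 35.5 in HuR-FKO iWAT against 36.5, 22.5 and 33 in Ctrl iWAT. Mgst3 had 15.6 and 18.9 FPKM in HuR-FKO BAT against 33.7 and 28.4 in Ctrl BAT, 153, 144 and 162 in HuR-FKO eWAT against 133, 187 and 174 in Ctrl eWAT, and 77.3, 63.9 and 95.3 in HuR-FKO iWAT against 78.7, 76.4 and 93.2 in Ctrl iWAT. BAT was below both white depots in all of them, and Mgst1 and Mgst3 were also higher in each eWAT library than in any iWAT library. Gstz1, the maleylacetoacetate isomerase of tyrosine breakdown, had 115 and 125 FPKM in HuR-FKO BAT against 143 and 185 in Ctrl BAT, 469.6, 464 and 509.9 in HuR-FKO eWAT against 514, 509 and 499 in Ctrl eWAT, and 265, 264 and 358 in HuR-FKO iWAT against 299, 294 and 308 in Ctrl iWAT, with the depots apart in the same order. Gstk1, found in mitochondria and peroxisomes, had 40.7 and 39.4 FPKM in HuR-FKO BAT against 45.3 and 49.9 in Ctrl BAT, 43.7, 52.2 and 47.6 in HuR-FKO eWAT against 45.9, 55 and 59.9 in Ctrl eWAT, and 41.7, 35.4 and 51.5 in HuR-FKO iWAT against 41.9, 43.5 and 48.9 in Ctrl iWAT, and all its depots overlapped. The omega class enzymes reduce dehydroascorbate. Gsto1 had 57.2 and 60.4 FPKM in HuR-FKO BAT against 58.2 and 63.1 in Ctrl BAT, 43.7, 40.6 and 55 in HuR-FKO eWAT against 47.1, 50.6 and 48 in Ctrl eWAT, and 45.5, 43.5 and 57.5 in HuR-FKO iWAT against 44.5, 49.7 and 44.3 in Ctrl iWAT. Gsto2 had 5.31 and 3.92 FPKM in HuR-FKO BAT against 3.31 and 3.26 in Ctrl BAT, 2.34, 2.51 and 1.54 in HuR-FKO eWAT against 1.5, 1.76 and 1.36 in Ctrl eWAT, and 2.42, 1.86 and 2.83 in HuR-FKO iWAT against 1.69, 1.09 and 1.59 in Ctrl iWAT. Both were above every eWAT library in BAT, and Gsto2 above every iWAT library too.

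To ask how the depots of white fat differ, eWAT was compared with iWAT in a limma fit to log2(FPKM + 1) over the 8 libraries of each genotype, with Benjamini-Hochberg adjustment over all genes tested and a threshold of 0.05. Most of the genes that differed were higher in eWAT. In HuR-FKO mice 21 of the 40 genes tested were higher in eWAT and 2 lower, against 14.9% higher and 14.9% lower of all 13017 genes. In Ctrl mice 20 were higher and 1 lower, against 12.2% and 15.9% of all 13054 genes. The median log2 fold change of the 40 genes was 0.40 in HuR-FKO and 0.52 in Ctrl, whereas over all genes it was 0.01 and -0.02. The genotypes share no library in these fits, although the mice were littermates. Out of 21 genes in HuR-FKO and 20 in Ctrl, 17 were higher in both. The share of all genes higher in both is not given here, so this count is not read as a result about these genes. The 17 were Gpx1, Gpx3, Gpx4, Gsta3, Gstm1, Gstm2, Gstm3, Gstm5, Gstm6, Gstm7, Gstt2, Gstt3, Gstz1, Mgst1, Mgst3, Prdx6 and Sod3. Gpx8 was lower in both.

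Gsta3 and Gstm7 had the largest differences in both genotypes. Gsta3 was higher in eWAT by a log2 fold change of 2.28 ± 0.479 (SE, adjusted p = 0.00763) in HuR-FKO and 1.98 ± 0.268 (adjusted p = 8.31e-04) in Ctrl. The changes of Gstm7 were 1.57 in HuR-FKO and 1.63 in Ctrl, of Gstm2 1.12 and 1.09, of Gstm1 1.10 and 0.98, and of Mgst3 0.97 and 0.98. The other GSTs called in both genotypes were between 0.60 (Mgst1 in Ctrl) and 1.17 (Gstm5 in HuR-FKO). Among the enzymes that remove peroxides, Gpx1 was higher by 1.17 ± 0.17 in HuR-FKO (adjusted p = 0.00129) and 0.96 ± 0.193 in Ctrl (adjusted p = 0.00592). Prdx6 was higher by 1.11 ± 0.105 in HuR-FKO (adjusted p = 1.52e-04) and 1.11 ± 0.129 in Ctrl (adjusted p = 3.69e-04). Gpx8 was lower, with -1.10 ± 0.139 in HuR-FKO (adjusted p = 6.61e-04) and -1.21 ± 0.103 in Ctrl (adjusted p = 6.66e-05). Gclc, Gss, Gsr, Gstk1, Gstp2, Mgst2, the omega class, Prdx1 to Prdx4, Gpx7 and Sod1 passed in neither genotype. In HuR-FKO alone Gstt1 (0.49), Gclm (0.40), Gstp1 (0.40) and Gsta4 (0.39) were also higher and Sod2 lower (-0.38). In Ctrl alone Cat (0.57), Gstm4 (0.67) and Prdx5 (0.68) were higher. The tests of the difference between the genotypes' depot effects are those of the HuR-FKO effect between depots, given below, and none of these genes passed them.

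**Figure D2:**
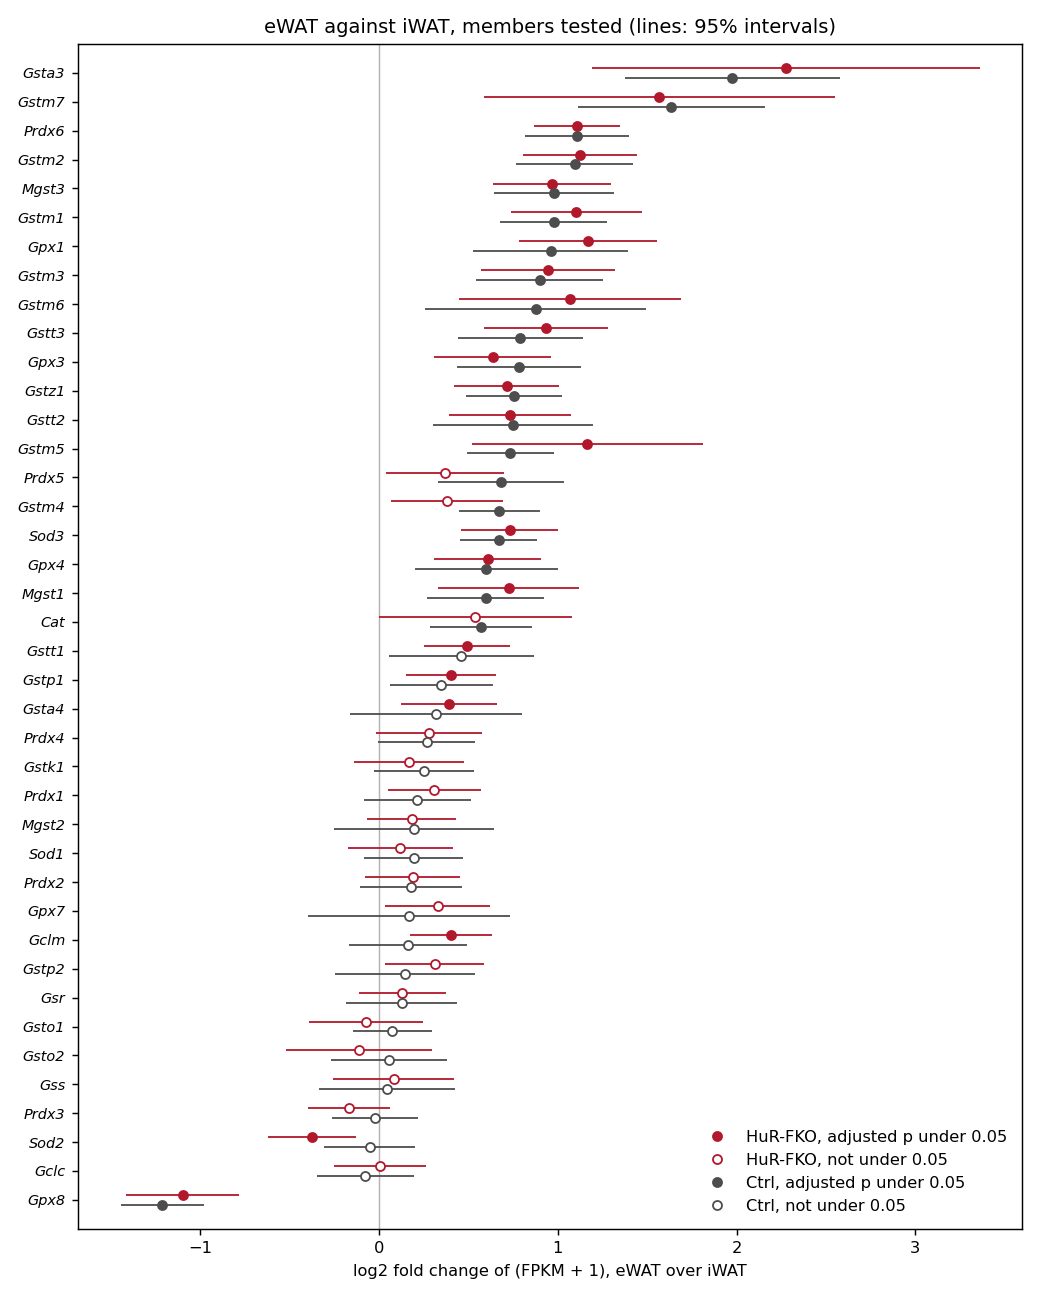
Log2 fold change of eWAT over iWAT for each tested gene in HuR-FKO (red) and Ctrl (grey) mice, from the limma fits, with 95% intervals, and filled points where the adjusted p was under 0.05. Most filled points lie right of 0, Gsta3 being the farthest, and Gpx8 is the point farthest left.

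Some of these calls rest on single libraries. In HuR-FKO, 15 of the 23 calls were made whichever library was left out, and in Ctrl 17 of 21. In HuR-FKO, Gclm lost its call without eWAT replicate 3 or iWAT replicate 2 (adjusted p up to 0.0753), and Gsta4 without eWAT replicate 2 or 3 or iWAT replicate 1 or 2 or BAT replicate 1 or 2 (adjusted p up to 0.112). Gstm5 lost it without eWAT replicate 1 or iWAT replicate 2 (adjusted p up to 0.058), Gstm6 without eWAT replicate 1 or 2 (adjusted p up to 0.0671) and Gstm7 without eWAT replicate 1 or 2 or iWAT replicate 1 or 2 (adjusted p up to 0.0905). For Gstp1 this was so without eWAT replicate 2 or iWAT replicate 2 (adjusted p up to 0.0913), for Mgst1 without iWAT replicate 2 (adjusted p up to 0.0578) and for Sod2 without eWAT replicate 1 or 3 or iWAT replicate 1 or 2 (adjusted p up to 0.118). In Ctrl, Gpx4 lost its call without eWAT replicate 1 or 2 or 3 or iWAT replicate 2 or 3 (adjusted p up to 0.114) and Gstm6 without eWAT replicate 1 or 3 or iWAT replicate 2 or 3 or BAT replicate 1 or 2 (adjusted p up to 0.136). Gstt2 lost it without eWAT replicate 2 or 3 or iWAT replicate 1 or 2 (adjusted p up to 0.0825) and Mgst1 without eWAT replicate 2 or iWAT replicate 1 (adjusted p up to 0.0622). The cell markers differed between these depots as well. The summed level of 7 adipocyte markers was 22232 to 33968 FPKM in eWAT and 15854 to 22438 in iWAT. That of 6 macrophage markers was 349 to 581 in eWAT and 583 to 1014 in iWAT, and that of 5 fibroblast and progenitor markers 847 to 1261 and 797 to 1628. That of 4 mesothelial markers was 88.1 to 163 in eWAT and 0.298 to 2.04 in iWAT, and that of 4 B cell markers 3.15 to 6.63 and 42.9 to 215. The macrophage markers did not all run alike. C1qa and Cd68 were higher in every iWAT library than in any eWAT library, and Csf1r overlapped. Cd14 was at 28.5 to 44.8 FPKM in eWAT and 25.2 to 32.9 in iWAT. Fewer cells of a type and less RNA per cell cannot be told apart in such tissue, and the part of these markers in the differences was not tested.

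BAT was set against each white depot in the same fits, so that the BAT libraries are shared by both comparisons. Against iWAT, 7 of the 40 genes were higher and 23 lower in HuR-FKO (8.62% and 68.3% of all genes), and 10 higher and 19 lower in Ctrl (8.89% and 65.6%). Against eWAT, 6 were higher and 27 lower in HuR-FKO (9.11% and 68.6%), and 6 higher and 28 lower in Ctrl (9.35% and 64.9%). The whole table was shifted in the same direction, and its median log2 fold change against iWAT was -0.70 in HuR-FKO and -0.69 in Ctrl, and against eWAT -0.72 and -0.66. The 40 genes had medians of -0.44 and -0.36 against iWAT and -1.02 and -0.80 against eWAT. After median-ratio scaling the split against iWAT was 18 higher and 10 lower in HuR-FKO and 20 and 7 in Ctrl, and against eWAT 13 and 18 in HuR-FKO and 13 and 17 in Ctrl. Scaling raises every gene of BAT against white fat, and the share of all genes called after scaling is not given here. The turn in the split is therefore not read as a result about these genes. Below, genes are named as higher or lower in BAT where they passed the test in the same direction on both scales. The share of all genes that did so is not given here, so the number of genes named is not read as a result.

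**Figure D3:**
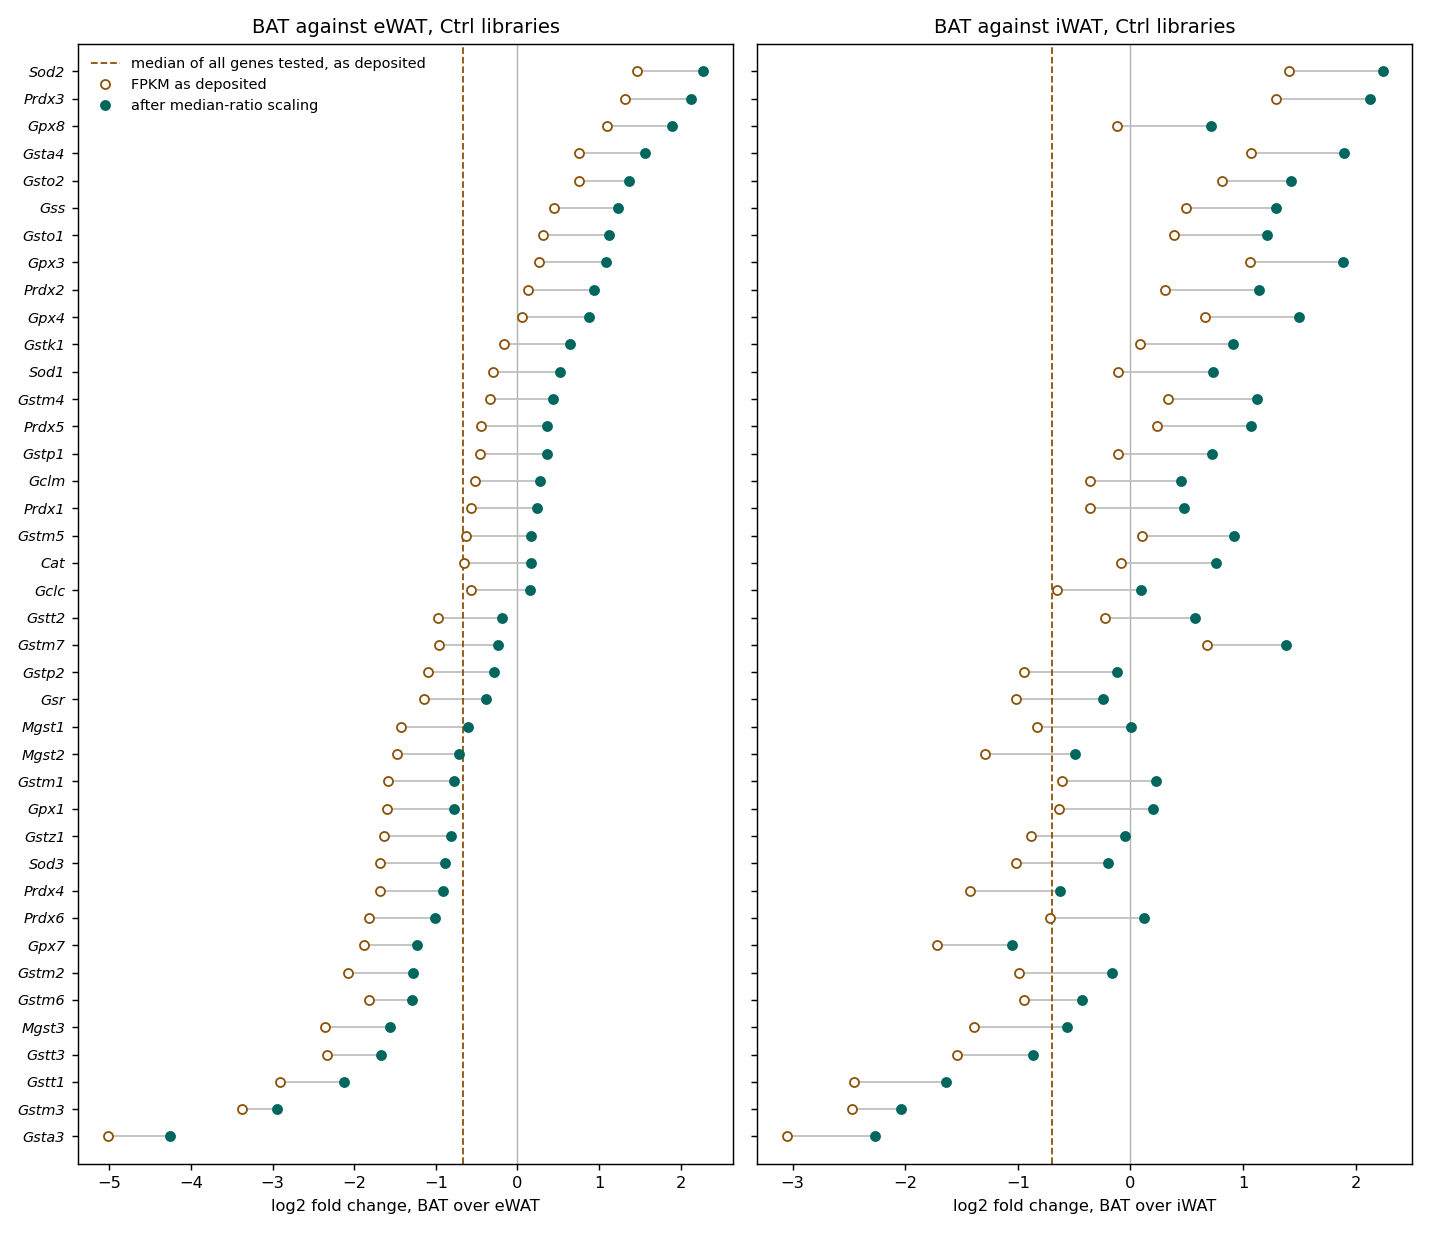
Log2 fold change of BAT over eWAT and of BAT over iWAT in Ctrl mice for each gene, on the deposited values (open points) and after median-ratio scaling (filled points), with the median of all genes as dashed lines. Scaling moves every gene to the right, low genes such as Gstm3 by less, and Sod2 and Prdx3 stay above 0 and Gsta3 and Gstm3 below 0 on both scales.

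Sod2 and Prdx3, both mitochondrial, and Gsto2 were higher in BAT on both scales. Sod2 was higher in BAT than in eWAT by 1.74 ± 0.122 in HuR-FKO (adjusted p = 3.72e-06) and 1.47 ± 0.126 in Ctrl (adjusted p = 1.09e-05), and than in iWAT by 1.36 ± 0.122 in HuR-FKO and 1.41 ± 0.126 in Ctrl. After scaling these values were 2.62, 2.28, 2.21 and 2.24. Prdx3 was higher than in eWAT by 1.25 ± 0.115 in HuR-FKO and 1.32 ± 0.12 in Ctrl, and than in iWAT by 1.08 ± 0.115 and 1.29 ± 0.12. Scaled, they were 2.13, 2.13, 1.94 and 2.13. Gsto2 was higher than in eWAT by 0.85 in HuR-FKO and 0.76 in Ctrl and than in iWAT by 0.74 and 0.81, at a low level. Its call against iWAT in HuR-FKO was lost without BAT replicate 1 (adjusted p = 0.087).

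Gsta3, Gstt1, Gstt3, Gstm3, Mgst3, Gpx7 and Prdx4 were lower in BAT on both scales. Gsta3 was lower in BAT than in eWAT, with -5.69 ± 0.536 in HuR-FKO and -5.02 ± 0.299 in Ctrl (scaled -4.96 and -4.26), and than in iWAT, with -3.42 ± 0.536 and -3.05 ± 0.299 (scaled -2.71 and -2.27). Gstt1 was lower, with -2.80 in HuR-FKO and -2.91 in Ctrl against eWAT and -2.31 and -2.45 against iWAT. Mgst3 had -3.08 in HuR-FKO and -2.36 in Ctrl against eWAT and -2.11 and -1.39 against iWAT. Gstm3 had -3.53 and -3.37 against eWAT and -2.59 and -2.47 against iWAT, and Gstt3 had -2.36 and -2.33 against eWAT and -1.42 and -1.54 against iWAT. The scaled values of these genes in Ctrl were between -2.95 (Gstm3 against eWAT) and -0.56 (Mgst3 against iWAT). Gpx7 was lower in BAT, with -2.03 in HuR-FKO and -1.88 in Ctrl against eWAT, and -1.70 and -1.72 against iWAT. Prdx4 was lower, with -1.83 in HuR-FKO and -1.68 in Ctrl against eWAT, and -1.55 and -1.42 against iWAT. Scaled, in Ctrl, Gpx7 had -1.23 and -1.05, and Prdx4 -0.91 and -0.62. Each of these calls, and those of Sod2 and Prdx3, was made on the deposited values whichever library was left out.

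For the other genes the direction in BAT turned with the scale in at least 1 comparison, the test was not passed on both scales, or only 1 white depot was involved. Gsr is an example of a gene lower in BAT as deposited (-1.20 and -1.15 against eWAT in HuR-FKO and Ctrl), with scaled values of -0.39 and -0.39. Of the deposited calls against iWAT, 21 of 30 in HuR-FKO and 23 of 29 in Ctrl were made whichever library was left out, and of those against eWAT 26 of 33 and 27 of 34. Markers of other cells differed as well. In BAT 6 macrophage markers summed to 31.2 to 88.4 FPKM, against 349 to 1014 in white fat, and 5 fibroblast and progenitor markers to 67.4 to 216, against 797 to 1628. The 6 skeletal muscle markers found summed to 806 to 2474 FPKM in BAT, against 1.82 to 4.11 in eWAT and 10.2 to 1662 in iWAT. Their part in the differences was not tested.

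To ask how the genotypes as labelled differ, HuR-FKO was compared with Ctrl in each depot on its own. None of the 39 or 40 genes tested passed in any depot. In BAT, of 39 genes tested, 3 had a positive and 6 a negative change with an unadjusted limma p below 0.05. The smallest adjusted p was 0.32. Of all genes 0% were called there (0 of 10944), with 316 positive and 739 negative changes below that unadjusted p. This count over all genes depended on the fit. It was 13 higher and 33 lower with the replicate number as a block, 26 and 45 with all 16 libraries in 1 fit, and 24 and 112 without BAT Ctrl replicate 2. In eWAT it was 2 positive and 3 negative changes of 40, with a smallest adjusted p of 0.268, and 0.0406% of all genes were called. In iWAT it was 5 and 5 of 40, with a smallest adjusted p of 0.239, and 0.0394% of all genes were called. The median log2 fold change of the genes was -0.19 in BAT, -0.02 in eWAT and -0.05 in iWAT, and that of all genes -0.05, -0.01 and -0.04.

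A second view is whether the libraries of the genotypes overlap. In BAT, with 2 libraries a side, 5 of 39 genes had both HuR-FKO libraries above both Ctrl libraries and 18 had both below, against 14.8% and 26.6% of all genes. In eWAT it was 2 above and 2 below of 40 (6.67% and 6.49% of all genes), and in iWAT 5 above and 6 below (5.66% and 8.83%). Gsta4 and Gstt2 were above in each of the 3 depots, and Gsr was below in each, as were 0.765% and 0.963% of the 10592 genes tested in all depots. Whether the depots of a genotype came from the same mice is not given in the sources used here, so the depots may not be independent of each other.

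In the BAT fit the lowest unadjusted p was that of Gpx8, with a log2 fold change of -0.73 ± 0.126 (SE, limma, adjusted p = 0.32), which passed when all 16 libraries shared 1 estimate of the spread (adjusted p = 0.0453). Mgst3 had -0.81 ± 0.163 (adjusted p = 0.322). The others with an unadjusted p below 0.05 in BAT were Mgst2 (-0.64), Gstm5 (-0.47), Gstz1 (-0.44) and Gstm1 (-0.32) below 0 and Gstt2 (0.69), Gstm6 (0.58) and Sod2 (0.35) above 0. In eWAT they were Gsta4 (0.91) and Gstt2 (0.72) above 0 and Gpx3 (-0.42), Gsr (-0.34) and Prdx6 (-0.31) below. In iWAT they were Gsta4 (0.84), Gstt2 (0.73), Gsto2 (0.46), Sod2 (0.40) and Prdx3 (0.31) above 0 and Gstm5 (-0.48), Gsr (-0.34), Prdx6 (-0.31), Gpx8 (-0.29) and Prdx4 (-0.26) below. None of these passed the adjusted threshold.

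After these values were seen, a further contrast was added, the mean of the HuR-FKO effects of the 3 depots in a limma fit of all 16 libraries. The fit takes the libraries as independent, and its p-values do not account for mice that the depots may share. This contrast called 5 of the genes, 3 higher and 2 lower, against 1.23% and 1.41% of all 13237 genes. The count was 2 without BAT HuR-FKO replicate 1 and 3 without BAT HuR-FKO replicate 2, iWAT HuR-FKO replicate 2 or eWAT Ctrl replicate 3. With an unadjusted p below 0.05, 5 had a positive and 11 a negative change. Gstt2 was higher in HuR-FKO by 0.71 ± 0.118 (SE, adjusted p = 0.00692) and Gsta4 by 0.66 ± 0.116 (adjusted p = 0.00947). Both lie near other genes of the set, Gstt2 on chromosome 10 (75831114 to 75837424) and Gsta4 on chromosome 9 (78182774 to 78209349), and measured neighbours did not pass. Gstt1 had -0.06 and Gstt3 -0.03 (adjusted p = 0.811 and 0.93), and Gclc -0.16 (adjusted p = 0.244). For Gsta4 the effect was 0.91 in eWAT, 0.84 in iWAT and 0.23 in BAT, and for Gstt2 0.72, 0.73 and 0.69. Both were called whichever of the 16 libraries was left out, with adjusted p up to 0.0392 for Gsta4 and 0.0307 for Gstt2.

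The 3 other calls were less stable. Gpx8 (chromosome 13, 113042753 to 113046410) was lower in HuR-FKO, with -0.40 ± 0.0765 (adjusted p = 0.0159), and lost its call without BAT HuR-FKO replicate 1 (adjusted p = 0.0634). Gsr (chromosome 8, 33652523 to 33698163) was lower, with -0.35 ± 0.0757 (adjusted p = 0.0278), with effects of -0.38 in BAT, -0.34 in eWAT and -0.34 in iWAT. It was called in 9 of the 16 fits that left out 1 library (adjusted p up to 0.0838). Sod2 (chromosome 17, 13006846 to 13040063) was higher, with 0.27 ± 0.0671 (adjusted p = 0.0474), and was called in 2 of those 16 fits (adjusted p up to 0.133). Just past the threshold were Prdx4 (-0.30, adjusted p = 0.0574), Gsto2 (0.37, adjusted p = 0.0629) and Mgst3 (-0.33, adjusted p = 0.0843). Gsta3 had the lowest average, -0.67, with a wide interval (-1.26 to -0.0938, adjusted p = 0.209). Beside Sod2, which is mitochondrial, the share of mitochondrially encoded genes was 43.7% and 44.5% in HuR-FKO BAT against 39.2% and 37.7% in Ctrl BAT, 16.8%, 14.2% and 16.7% in HuR-FKO eWAT against 13.5%, 13.9% and 12.1% in Ctrl eWAT, and 25.1%, 27.3% and 23.9% in HuR-FKO iWAT against 19.7%, 20.6% and 23.3% in Ctrl iWAT. In iWAT the 7 brown adipocyte markers summed to 772, 972 and 502 FPKM in HuR-FKO against 313, 213 and 329 in Ctrl, and in eWAT to 25.9, 35.9 and 31.4 against 19.7, 12.9 and 16.2. Their sums in BAT overlapped between the genotypes, at 5082 and 4594 FPKM in HuR-FKO against 5601 and 4160 in Ctrl. The 3 red cell markers found summed to 2851, 2619 and 3279 FPKM in HuR-FKO eWAT against 1355, 1636 and 2007 in Ctrl eWAT, and to 1289, 1101 and 2171 in HuR-FKO iWAT against 978, 778 and 889 in Ctrl iWAT. In BAT they summed to 1411 and 1164 in HuR-FKO against 970.1 and 878 in Ctrl. The averaged effect called 4 of the 7 brown adipocyte and 3 of the 3 red cell markers, all higher in HuR-FKO. The 5 endothelial markers summed to 291, 254 and 273 FPKM in HuR-FKO eWAT against 211, 250 and 234 in Ctrl eWAT. In iWAT they summed to 180, 187 and 209.5 in HuR-FKO against 164, 162 and 172 in Ctrl, and in BAT to 144 and 134 against 110 and 124. These sums did not overlap between the genotypes in any depot, whereas single markers such as Emcn in BAT did. In BAT 6 skeletal muscle markers summed to 806 and 830.3 FPKM in HuR-FKO against 2474 and 1415 in Ctrl. The part of these markers in the HuR-FKO effects was not tested.

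**Figure D4:**
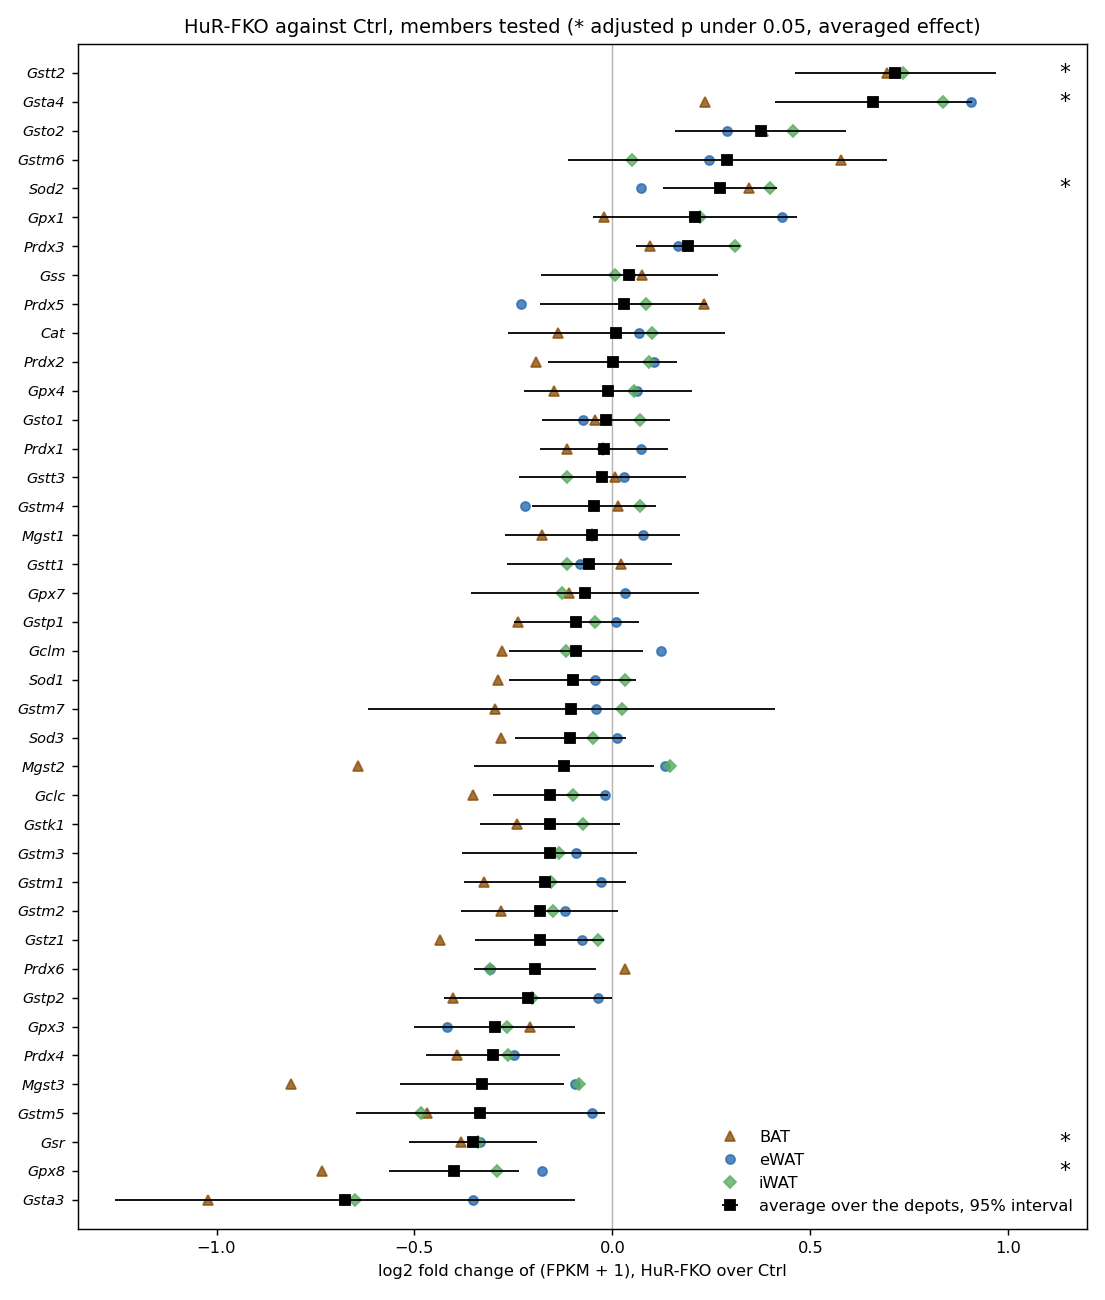
Log2 fold change of HuR-FKO over Ctrl for each gene, averaged over the 3 depots with its 95% interval, and in BAT, eWAT and iWAT as separate points. Stars mark the 5 genes with an adjusted p under 0.05 for the average, Gstt2, Gsta4 and Sod2 right of 0 and Gpx8 and Gsr left of 0.

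**Figure D5:**
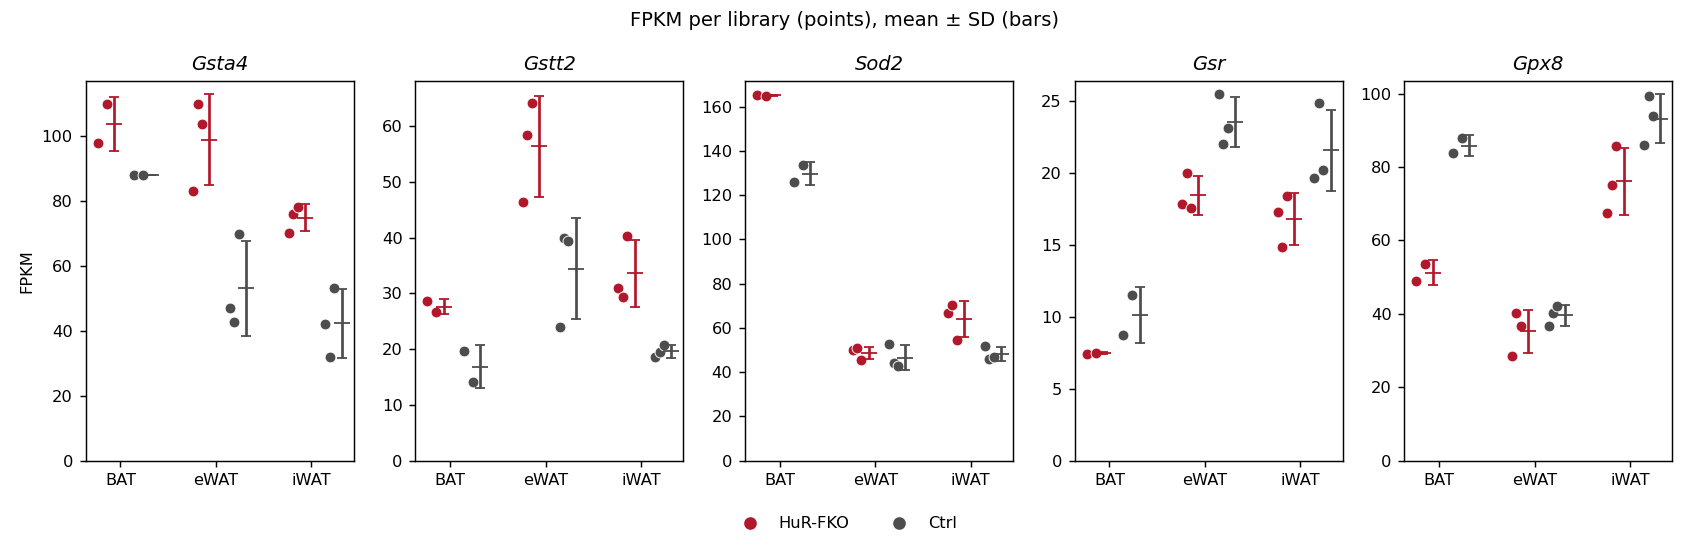
FPKM of Gsta4, Gstt2, Sod2, Gsr and Gpx8 in each library (points) by depot, HuR-FKO left of Ctrl, with the mean ± SD of 2 (BAT) or 3 (eWAT, iWAT) libraries. The genotypes do not overlap in any depot for Gsta4, Gstt2 and Gsr, whereas they overlap in eWAT for Gpx8 and Sod2.

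Whether the HuR-FKO effect differed between depots was tested by the interaction of depot and genotype. None of the 40 genes tested passed. Without the minimum level Gsta1, which is not among them, was called for BAT minus iWAT. For the effect in BAT minus that in eWAT, 0 genes had a positive and 5 a negative difference with an unadjusted limma p below 0.05 (smallest adjusted p 0.527), and 0.0158% of all genes were called (6 higher and 65 lower without BAT Ctrl replicate 2). For BAT minus iWAT it was 0 and 4 (smallest adjusted p 0.999), with 0% of all genes called. For iWAT minus eWAT it was 0 and 0, with 0.00764% of all genes called. For Gsta4 the effect in BAT minus that in eWAT was -0.67 ± 0.277 (95% interval -1.29 to -0.0556, adjusted p = 0.764), so neither a smaller effect in BAT nor a like one was shown.

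The redox network was followed in 8 lists, with 114 to 122 entries tested in each depot. The list of glutathione synthesis repeats Gclc, Gclm and Gss, and the 7 others hold none of the 48 genes. No listed gene passed limma's adjusted threshold between HuR-FKO and Ctrl in a single depot. With an unadjusted p below 0.05 there were 3 positive and 6 negative changes in BAT, 5 and 6 in eWAT, and 5 and 6 in iWAT. The interactions called none either. The averaged effect called 5 of the 124 entries, 2 higher and 3 lower, against 1.23% and 1.41% of all genes. Mafg (-0.43) and Cul3 (-0.25) of 22 NRF2 regulators and targets were lower in HuR-FKO, and so was Cp (-0.37), the copper oxidase ceruloplasmin, of 17 genes of methionine sulfoxide reductases and other peroxide handling. The mitochondrial carriers Slc25a39 (0.31) and Slc25a11 (0.21) of 20 genes of glutathione breakdown, transport and glyoxalase were higher. Cul3 belongs to the ligase that degrades NRF2, Mafg is a partner of NRF2, and Slc25a39 imports glutathione into mitochondria. In the lists of glutathione synthesis (3 genes), the thioredoxin and glutaredoxin system (12), NADPH supply (14), selenoprotein synthesis (17) and superoxide and peroxide sources (19), 0 genes were called. After median-ratio scaling Cul3 (-0.21, adjusted p = 0.0659) and Cp (-0.33, adjusted p = 0.0689) no longer passed, and Glrx5 (0.29, adjusted p = 0.0346) and Glo1 (0.23, adjusted p = 0.0325) did.

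Between eWAT and iWAT the listed genes were called in both directions. Among all genes 14.9% were higher and 14.9% lower in eWAT in HuR-FKO, and 12.2% and 15.9% in Ctrl. Of the 22 genes of the NRF2 list, 5 were higher and 1 lower in eWAT of HuR-FKO mice, and 4 were higher and 2 lower in Ctrl. Aox1, an aldehyde oxidase, was higher by 0.85 in HuR-FKO and 0.72 in Ctrl, Nqo1 by 0.57 in HuR-FKO and Osgin1 by 0.69 in Ctrl. Hmox1, the heme oxygenase, was lower, with -1.01 in HuR-FKO and -1.24 in Ctrl, and so was Akr1b8 in Ctrl (-0.65). Of 19 superoxide and peroxide sources, 4 were higher and 9 lower in HuR-FKO, and 4 were higher and 8 lower in Ctrl. Aoc3, the vascular adhesion amine oxidase, was higher by 1.37 in HuR-FKO and 1.15 in Ctrl, Maoa by 0.65 in HuR-FKO and Dao by 1.46 in Ctrl. Rac2 of the phagocyte oxidase was lower, with -2.41 in HuR-FKO and -2.33 in Ctrl, as were Ncf4 in HuR-FKO (-1.79) and Nox4 in Ctrl (-1.52).

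The other lists had fewer calls. Of 14 NADPH genes, 2 were higher in eWAT (Nnt 0.72 and G6pdx 0.46) and 3 lower (Tkt -0.97 and Me1 -0.74 at the low end) in HuR-FKO, and 0 were called in Ctrl. In the thioredoxin and glutaredoxin system, 3 of 12 were higher and 1 lower in each genotype. Glrx5 had 0.51 in HuR-FKO and 0.66 in Ctrl, Glrx -0.64 and -0.76, Nxn 0.57 in HuR-FKO and Txnrd3 0.54 in Ctrl. Of glutathione breakdown, transport and glyoxalase, 2 of 20 were higher in HuR-FKO (Glo1 0.71 and Lap3 0.47) and 3 of 19 in Ctrl (Chac1 1.02 and Abcc3 0.67 at the top). Of 17 selenoprotein genes, 3 were higher in HuR-FKO (Msrb1 0.89 and Sepw1 0.36 at the top) and 1 in Ctrl (Msrb1 0.78). Of peroxide handling, 5 of 17 were higher and 1 lower in HuR-FKO, and 3 were higher and 1 lower in Ctrl. Sesn2 had 0.99 in HuR-FKO and 0.75 in Ctrl, Pxdn 0.75 in HuR-FKO and Aifm2 0.65 in Ctrl, and the lower genes were Coq10a in HuR-FKO (-0.37) and Sesn3 in Ctrl (-0.90). Of glutathione synthesis, Gclm alone passed, in HuR-FKO. After median-ratio scaling G6pdx (adjusted p = 0.0737), Lap3 (0.0635), Ftl1 (0.0502), Cp (0.0703), Xdh (0.0976) and Maob (0.0632) lost their calls in HuR-FKO, where Duox1 was not tested, and Abcc3 (0.0586) and Chac1 (0.0724) lost theirs in Ctrl. Secisbp2 was then called in HuR-FKO (adjusted p = 0.0445), and Hagh (0.039) and Sep15 (0.0425) were in Ctrl.

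In BAT the partners of the mitochondrial peroxiredoxin were higher too. Txnrd2, the mitochondrial thioredoxin reductase, was higher than in eWAT by 1.0 in HuR-FKO and 1.02 in Ctrl, and than in iWAT by 0.86 and 0.94. Txn2, the mitochondrial thioredoxin, was higher than in eWAT by 0.65 in HuR-FKO and 0.62 in Ctrl, and than in iWAT by 0.55 and 0.64. Both passed in the same direction after scaling. Of all genes, as deposited, 9.11% were higher and 68.6% lower in BAT than in eWAT in HuR-FKO, and 9.35% and 64.9% in Ctrl. Against iWAT the shares were 8.62% and 68.3% in HuR-FKO, and 8.89% and 65.6% in Ctrl. They stand beside the deposited counts of all lists below, and the shares after scaling are not given here. Of the 12 genes of the thioredoxin and glutaredoxin system, 2 were higher and 5 lower than in eWAT in HuR-FKO, and 2 were higher and 4 lower in Ctrl. After scaling it was 9 higher and 1 lower in HuR-FKO, and 8 higher and 0 lower in Ctrl. Against iWAT, 3 were higher and 3 lower in HuR-FKO, and 2 were higher and 4 lower in Ctrl, whereas after scaling 9 were higher and 0 lower in each. The lowest as deposited were Nxn (-1.39) and Txnip (-1.12) in HuR-FKO and Txnip (-1.43) and Nxn (-1.05) in Ctrl, both against eWAT.

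For NADPH supply, 5 of 14 genes were higher in BAT than in eWAT and 5 lower in each genotype, and after scaling 9 were higher and 3 lower. Against iWAT, 6 were higher and 6 lower in HuR-FKO, and 5 and 5 in Ctrl. After scaling, 10 were higher and 2 lower in HuR-FKO, and 8 were higher and 3 lower in Ctrl. Me3, the mitochondrial malic enzyme, was higher than in eWAT by 2.93 in HuR-FKO and 2.97 in Ctrl, and than in iWAT by 2.38 and 2.56. Tkt, the transketolase, was higher than in eWAT by 1.97 in HuR-FKO and 2.04 in Ctrl, and than in iWAT by 0.99 and 1.27. The other malic enzyme of mitochondria, Me2, was lower on both scales, with -1.31 in HuR-FKO and -1.58 in Ctrl against eWAT as deposited.

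Of 17 selenoprotein genes, 2 were higher in BAT than in eWAT and 14 lower in HuR-FKO, and 1 was higher and 13 lower in Ctrl. Among all genes 68.6% were lower in HuR-FKO and 64.9% in Ctrl. After scaling, 4 were higher and 4 lower in HuR-FKO, and 4 were higher and 8 lower in Ctrl. Against iWAT, 2 were higher and 15 lower in HuR-FKO, and 2 were higher and 13 lower in Ctrl. After scaling, 4 were higher and 2 lower in HuR-FKO, and 4 were higher and 5 lower in Ctrl. Sephs2, which makes the selenium donor, was higher on both scales, with 1.0 in HuR-FKO and 0.61 in Ctrl against eWAT as deposited. Sepn1 (-2.38 and -2.34) and Selm (-2.33 and -2.15) were lower on both scales.

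Of the 22 genes of the NRF2 list, 0 were higher in BAT than in eWAT and 16 lower in HuR-FKO by limma, and 1 was higher and 16 lower in Ctrl. Among all genes 68.6% were lower in HuR-FKO and 64.9% in Ctrl. After scaling, 6 were higher and 8 lower in HuR-FKO, and 5 were higher and 7 lower in Ctrl. Against iWAT, 1 was higher and 15 lower in HuR-FKO, and 2 were higher and 16 lower in Ctrl. After scaling, 7 were higher and 3 lower in HuR-FKO, and 6 were higher and 5 lower in Ctrl. Osgin1 was lower on both scales, with -2.50 in HuR-FKO and -2.66 in Ctrl against eWAT as deposited, and so was Slc7a11, the cystine importer (-0.72 and -0.78). Hmox1 had -2.46 in HuR-FKO and -2.85 in Ctrl against iWAT as deposited.

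Of the 19 superoxide and peroxide sources, 1 was higher in BAT than in eWAT and 11 lower in HuR-FKO, and 2 were higher and 11 lower in Ctrl. After scaling, 4 were higher and 8 lower in HuR-FKO, and 6 were higher and 9 lower in Ctrl. Against iWAT, 2 were higher and 12 lower in HuR-FKO, and 3 were higher and 13 lower in Ctrl. After scaling, 5 were higher and 8 lower in HuR-FKO, and 6 were higher and 9 lower in Ctrl. The phagocyte oxidase genes Cybb, Ncf1, Ncf4 and Rac2 and the amine oxidase Aoc3 were lower on both scales in each comparison. Rac2, the lowest, had -4.37 in HuR-FKO and -4.45 in Ctrl against iWAT as deposited. The macrophage markers given above were lower in BAT as well. Ddo, the peroxisomal aspartate oxidase, was higher on both scales, with 1.87 in HuR-FKO and 2.1 in Ctrl against eWAT as deposited.

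Of glutathione breakdown, transport and glyoxalase, 5 of 20 genes were higher in BAT than in eWAT and 13 lower in HuR-FKO, and 2 of 19 were higher and 11 lower in Ctrl. After scaling, 9 were higher and 5 lower in HuR-FKO, and 9 were higher and 6 lower in Ctrl. Against iWAT, 6 were higher and 9 lower in HuR-FKO, and 4 were higher and 7 lower in Ctrl. After scaling, 10 were higher and 4 lower in HuR-FKO, and 9 were higher and 4 lower in Ctrl. Slc25a11 and Oplah, the oxoprolinase, were higher and Slc25a10, Anpep, Abcc3 and Ggt5 lower on both scales. Slc25a10, the dicarboxylate carrier of mitochondria, had -3.44 in HuR-FKO and -2.19 in Ctrl against eWAT as deposited.

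Of peroxide handling, 5 of 17 genes were higher in BAT than in eWAT and 8 lower in HuR-FKO, and 6 were higher and 8 lower in Ctrl. After scaling, 8 were higher and 5 lower in HuR-FKO, and 7 were higher and 4 lower in Ctrl. Against iWAT, 6 were higher and 7 lower in HuR-FKO, and 6 and 6 in Ctrl. After scaling, 10 were higher and 4 lower in HuR-FKO, and 8 were higher and 5 lower in Ctrl. Coq10a, Msrb2, Ucp3 and Ccs, the copper chaperone of Sod1, were higher and Ucp2, Cp and Sesn1 lower on both scales. As deposited against eWAT, Coq10a had 1.98 in HuR-FKO and 1.68 in Ctrl, and Ucp2 -2.61 and -3.21.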

How the data were processed

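RNA of epididymal, inguinal and brown fat was sequenced in 16 libraries, each pooled from 3 mice. The authors made strand-specific paired-end libraries (NEBNext Ultra kit, HiSeq4000), aligned the reads to mm10 with TopHat 2.0.11 and deposited FPKM values per gene from Cufflinks 2.1.1. The annotation release is not given in the sources used here. FPKM are scaled to the mapped fragments of a library, so a few very abundant genes can lower all others. Whether this bears on the BAT comparisons was not tested.

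Protein-coding genes (GENCODE vM21 biotypes) with a mean above 1 FPKM in a group compared were tested on log2(FPKM + 1) with limma 3.58.1 (R 4.3.3, eBayes with trend, two-sided), with Benjamini-Hochberg adjustment over all genes tested and a threshold of 0.05. Fold changes on this scale understate the change of low genes. HuR-FKO was compared with Ctrl per depot, depots within each genotype, and depot effects by interaction. The mean effect over the depots was added after the data were seen. The fit was tested on simulated data. Depth was estimated from the steps of low values (55.6% to 83% of them at whole fragments). The FPKM hold no exact counts, so no counting interval is given.

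The genes and lists were chosen with earlier results of these data known. Values per library were to be given for genes past the threshold in any comparison, with an unadjusted p below 0.05 in a HuR-FKO comparison, or among the 3 most abundant of their class. For the lists, the 2 largest called changes each way were to be named. In the BAT comparisons of the lists, genes called on both scales were named as well, chosen after their values were seen. In Ctrl, same-numbered eWAT and iWAT libraries deviated together (correlations 0.258, 0.292 and 0.210), in HuR-FKO 2 of 3 pairs stayed below 0.1 (0.076, 0.054 and 0.247). Alternatives were another pseudocount (0.1), no minimum, all rows, median-ratio scaling, a replicate block, all libraries in 1 fit, eBayes without trend and each library left out. Promoter windows came from RefSeq (GRCm38.p6). Protein sequences were not analysed here.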

Additional observations from a re-analysis of the deposited data

How the results depend on the processing

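Median-ratio scaling in place of the deposited FPKM reversed 24 of the called differences between BAT and white fat and left 21 others short of the threshold. Against eWAT in HuR-FKO the scaled log2 fold changes of the reversed genes were 0.34 for Sod1, 0.02 for Cat, 0.12 for Prdx1 and 0.17 for Gstp1, and in Ctrl 0.17 for Cat, 0.15 for Gclc, 0.27 for Gclm, 0.44 for Gstm4, 0.17 for Gstm5, 0.36 for Gstp1, 0.24 for Prdx1 and 0.37 for Prdx5. Against iWAT they were, in HuR-FKO, 0.30 for Gclm, 0.29 for Gpx8, 0.073 for Gstm1, 0.55 for Gstp1, 0.41 for Prdx1, 0.48 for Prdx6 and 0.43 for Sod1, and in Ctrl 0.092 for Gclc, 0.20 for Gpx1, 0.22 for Gstm1, 0.0059 for Mgst1 and 0.12 for Prdx6. The scaling itself moves every BAT value up. Between eWAT and iWAT it kept 43 calls and left that of Gsta4 in HuR-FKO short (0.36, adjusted p = 0.0706).

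With all 16 libraries in 1 fit, 1 gene (Gpx8) was called between HuR-FKO and Ctrl in BAT. Without the minimum level, 1 (Gsta1) was called for the HuR-FKO effect in BAT minus that in iWAT, and the cause was not tested. Leaving out 1 library gave 2 to 6 calls for the averaged effect, 16 to 25 (HuR-FKO) and 18 to 22 (Ctrl) for eWAT over iWAT, 28 to 34 and 29 to 35 for BAT over eWAT, 22 to 31 and 24 to 29 for BAT over iWAT, and 0 for the HuR-FKO comparisons of single depots and the interactions. The averaged call of Sod2 was also lost without the minimum (adjusted p = 0.0554), over all rows of the table (0.0647) and without the trend (0.0615, limma throughout).

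With the replicate number as a block (replicate block), 27 genes in HuR-FKO and 21 in Ctrl were called for eWAT over iWAT, 34 in each for BAT over eWAT, 30 and 27 for BAT over iWAT, 6 for the averaged effect and 0 elsewhere, so no count of these genes moved by over 1.5 times. Over all genes the block called 13 higher and 33 lower between HuR-FKO and Ctrl in BAT, against 0. Same-numbered libraries of the 2 genotypes did not deviate together in eWAT (0.246, -0.255 and -0.097) or iWAT (0.089, 0.025 and 0.400). In BAT the correlation was 0.380, a single value, since with 2 libraries a group both pairs mirror each other. The number of pools, 2 or 3 a group, limits the precision.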
